A study of Mus musculus with 6 samples.

Results

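The neuromuscular junction and its response to the loss of the nerve were followed in mouse gastrocnemius, a fast-twitch calf muscle, through 10 genes chosen by name from the 54532 genes of the deposited count table: the acetylcholine receptor subunits Chrna1, Chrne and Chrng, the assembly genes Musk, Lrp4, Dok7 and Rapsn, the acetylcholinesterase genes Ache and Colq, and Fgfbp1. The group labelled MP held 3 libraries of mice with the genotype Mck cre; Tg Glut1-Hk2-Pfkfb3, and the group labelled Ctrl held 3 libraries of Mck cre mice. All 6 libraries were made from C57BL/6J mice aged 3 months, and all these mice drank 0.2% doxycycline from 4 weeks of age, so the Cre driver and the drug were shared by both groups. The muscle creatine kinase promoter named in the genotype acts in muscle fibres, not in motor neurons or Schwann cells, and the labels give neither sex nor litter.

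At the junction the motor neuron releases agrin, which binds the muscle receptor LRP4 and so switches on the kinase MuSK with the help of the adaptor Dok-7. MuSK activity makes rapsyn gather acetylcholine receptors opposite the nerve ending, and acetylcholinesterase, anchored there by the collagen tail ColQ, ends each signal. In innervated adult muscle the receptor holds the epsilon subunit (Chrne), transcribed by the nuclei under the synapse. Fetal or denervated fibres instead make the gamma subunit (Chrng) and transcribe receptor and Musk genes along their whole length, driven by myogenin. Fgfbp1 is a secreted carrier of fibroblast growth factors (FGFs) which, in mice, is made by muscle and helps to maintain and restore junctions.

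The sequences just upstream of the genes are where myogenic factors (on E-boxes, CANNTG) and ETS factors such as GABP (on N-boxes, CCGGAA) act on junction genes. Of the 10 genes, 7 had an entry among RefSeq promoters on GRCm38.p6, each covering 250 bases before to 50 bases after a transcription start. Printed here, as examples, are those of the receptor subunits whose levels lay apart in opposite directions, of the kinase and of the FGF carrier. Capitals mark every E-box and N-box found on either strand, and no matches overlapped.
Chrna1 promoter: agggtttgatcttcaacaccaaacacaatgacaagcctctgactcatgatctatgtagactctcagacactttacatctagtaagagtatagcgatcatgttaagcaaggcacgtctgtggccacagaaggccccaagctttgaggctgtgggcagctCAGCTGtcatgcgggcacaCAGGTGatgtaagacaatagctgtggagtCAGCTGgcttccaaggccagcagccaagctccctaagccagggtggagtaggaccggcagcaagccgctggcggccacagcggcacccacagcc
Musk promoter: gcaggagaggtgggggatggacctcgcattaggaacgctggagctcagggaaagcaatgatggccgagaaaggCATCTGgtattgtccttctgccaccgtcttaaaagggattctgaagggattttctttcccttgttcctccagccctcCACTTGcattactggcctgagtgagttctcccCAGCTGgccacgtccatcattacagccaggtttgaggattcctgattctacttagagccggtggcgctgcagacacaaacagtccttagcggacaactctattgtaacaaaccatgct
Chrne promoter: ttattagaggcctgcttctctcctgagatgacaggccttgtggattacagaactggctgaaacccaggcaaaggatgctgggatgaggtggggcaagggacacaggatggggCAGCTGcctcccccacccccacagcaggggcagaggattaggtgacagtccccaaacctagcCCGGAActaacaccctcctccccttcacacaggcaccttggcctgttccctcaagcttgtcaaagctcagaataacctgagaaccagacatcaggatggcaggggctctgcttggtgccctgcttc
Fgfbp1 promoter: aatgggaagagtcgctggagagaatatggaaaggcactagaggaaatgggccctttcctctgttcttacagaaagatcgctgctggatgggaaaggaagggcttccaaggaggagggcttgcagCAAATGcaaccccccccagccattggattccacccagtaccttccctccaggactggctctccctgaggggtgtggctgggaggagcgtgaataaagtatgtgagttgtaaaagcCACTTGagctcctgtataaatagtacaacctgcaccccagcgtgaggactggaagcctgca
They lie at chr2:73580289-73580588 (minus strand, Chrna1), chr4:58285712-58286011 (plus, Musk), chr11:70619145-70619444 (minus, Chrne) and chr5:43981750-43982049 (minus, Fgfbp1). The Chrna1 and Musk sequences held 3 E-boxes each, as did that of Chrng, a number reached or passed by 17.6% of all 32851 promoters in the table. Chrne held 1 E-box and, 76 bases before the start, the N-box for which this gene is known, and Fgfbp1 held 2 E-boxes. Of the sequences not printed, Dok7 had 2 entries, with 1 E-box in promoter 1 and 0 in promoter 2, and Ache held 1 E-box. At least 1 E-box was present in 72.3% of all promoters and at least 1 N-box in 14.9%, and a match describes the letters only.

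The libraries held 19546456 to 23381569 counts in the group labelled MP and 21796564 to 24665024 in the group labelled Ctrl. None of the genes named in the transgene passed the test as higher (Pfkfb3 -1.52, Slc2a1 -0.63 and Hk2 0.44 on the log2 scale, edgeR adjusted p = 0.196, 0.290 and 0.381), and Pfkfb3 lay lower in every library labelled MP than in any labelled Ctrl. Whether any labels were exchanged was not settled by these values, so every direction given here, rose and fell included, is between libraries as labelled. All 8 fibre markers had counts in every library. They summed to 90565 to 103621 CPM (counts scaled to library size) in libraries labelled MP and to 83794 to 126231 CPM in those labelled Ctrl. The library Ctrl replicate 1 stood apart through lymphocyte genes: 6 B cell markers summed to 477 CPM there, against 6.90 to 56.5 CPM in the libraries labelled MP and 7.99 to 14.4 CPM in the other Ctrl libraries. Library MP replicate 1 had the highest sum of 5 endothelial markers, 518 CPM, against 265 and 287 CPM in the other MP libraries and 190 to 280 CPM in the Ctrl libraries.

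Among the 10 junction genes, Fgfbp1 fell in the libraries labelled MP and was the only call in edgeR's quasi-likelihood test at an adjusted p under 0.05. The receptor alpha subunit Chrna1 and the assembly genes Lrp4, Dok7, Rapsn and Musk had higher means in the libraries labelled MP, by 1.40 to 2.09 times, and the adult subunit Chrne and the esterase tail Colq lower ones. Of the 9 genes that could be tested, 1 was called, as lower, where the test called 1.30% of all 14973 genes (194), 0.788% as higher (118) and 0.508% as lower (76). DESeq2 called 5 of the 9, Chrna1, Lrp4, Dok7 and Rapsn as higher and Fgfbp1 as lower, where it called 7.31% of the 14568 genes it gave an adjusted p, 4.00% as higher and 3.31% as lower. The 9 tested genes passed the filter on low counts in each group alone, so none owed its place to the group where it was high. The CPM values of the groups did not overlap in 7 of these 9 genes, 5 higher and 2 lower, against 27.4% of all tested genes. An unadjusted p under 0.05 was reached by 8 of the 9, against 20.8% of all tested genes. These genes and the further lists were chosen with earlier results of these data known. The shares set beside all tested genes are therefore no test of any list. In bulk RNA, fewer cells or junctional nuclei and less RNA in each cannot be told apart.

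**Figure D1:**
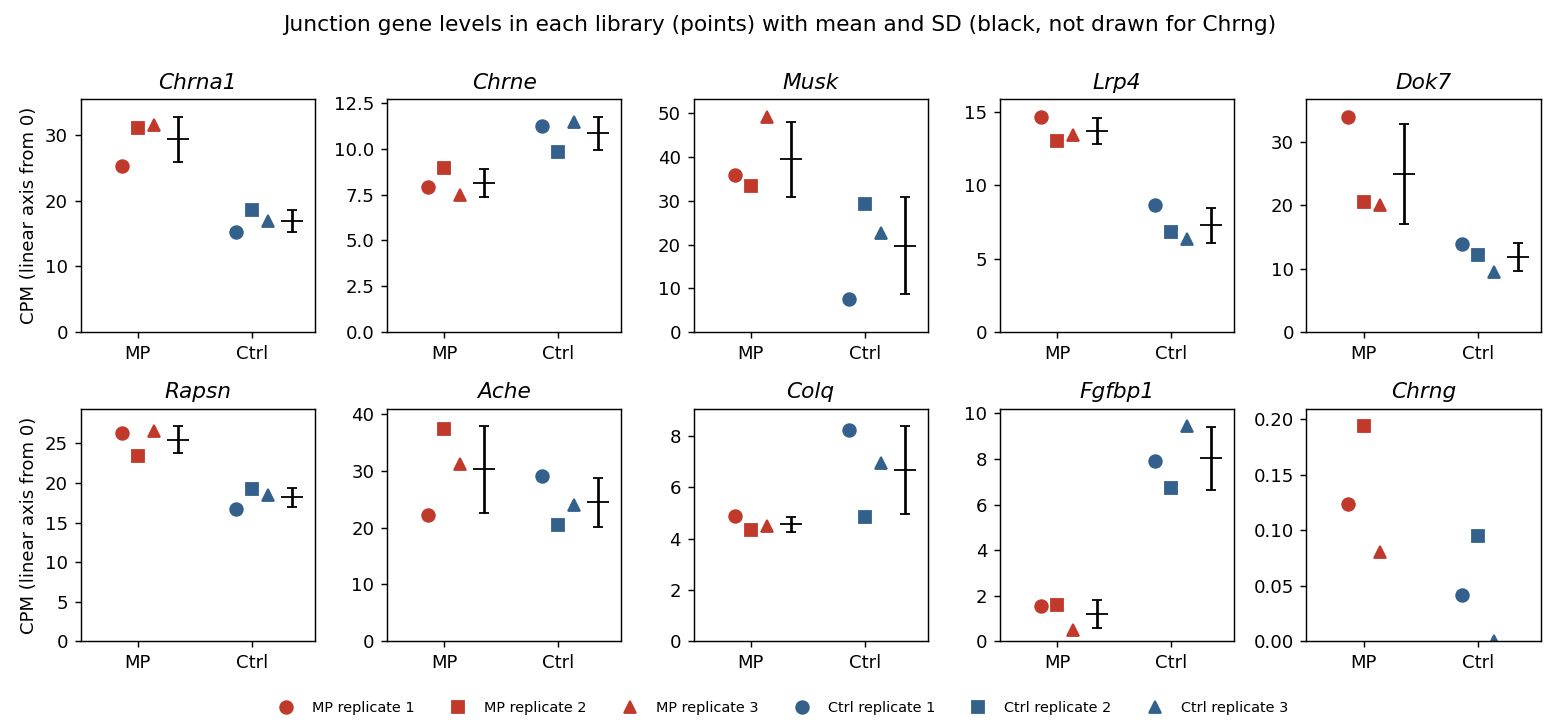
Levels of the 10 junction genes in CPM (linear axes from 0), with MP libraries in red on the left and Ctrl libraries in blue on the right. Symbols give the replicate and black bars the mean and SD of 3 libraries. Fgfbp1 lay at 0.481 to 1.60 CPM in MP libraries and at 6.71 to 9.45 CPM in Ctrl libraries, while Chrng stayed under 0.2 CPM in every library.

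Fgfbp1 (ENSMUSG00000048373, chromosome 5, 43978858 to 43981779, minus strand, GRCm38) had 1.53, 1.60 and 0.481 CPM in MP replicates 1, 2 and 3, against 7.92, 6.71 and 9.45 CPM in Ctrl replicates 1, 2 and 3. The highest MP library lay below the lowest Ctrl library, and MP replicate 3, with 12 counts, was the lowest of all. Its mean was 6.67-fold lower in the group labelled MP, with a log2 fold change of -2.75 ± 0.38 (SE, 95% interval -3.64 to -1.86, edgeR adjusted p = 0.0289). The call was kept without Ctrl replicate 1 (-2.76, edgeR adjusted p = 0.0139) and lost on leaving out any of the other 5 libraries, where the log2 fold change ran from -3.0 to -2.36 and the highest adjusted p, without Ctrl replicate 3, was 0.140. Fitting the replicate number as a block also ended it (edgeR adjusted p = 0.0977), in a fit that called 5 of all genes.

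The receptor subunits divided by direction. Chrna1 (ENSMUSG00000027107, chromosome 2, 73563215 to 73580338, minus strand), the alpha subunit that carries the acetylcholine binding site, had 25.3, 31.0 and 31.6 CPM in MP replicates 1, 2 and 3, against 15.3, 18.6 and 17.0 CPM in Ctrl replicates 1, 2 and 3. All MP libraries lay above all Ctrl libraries, by more than the spread within either group. The log2 fold change was 0.79 ± 0.14, its interval ran from 0.46 to 1.12, and the edgeR adjusted p, 0.0512, was just over the threshold. It passed without Ctrl replicate 1 (0.72, edgeR adjusted p = 0.0250), in a fit that called 13.1% of all genes, 6.08% as higher and 6.99% as lower, and in which 3 of the 9 tested junction genes were higher and 1 lower.

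Chrne (ENSMUSG00000014609, chromosome 11, 70614883 to 70619216, minus strand), the adult epsilon subunit, pointed the other way, with 7.89, 8.97 and 7.49 CPM in MP replicates 1, 2 and 3, against 11.3, 9.83 and 11.5 CPM in Ctrl replicates 1, 2 and 3. The groups did not overlap, but MP replicate 2 and Ctrl replicate 2 lay close together. The log2 fold change was -0.42 ± 0.16 (interval -0.79 to -0.06, edgeR adjusted p = 0.191). Chrne is uncertain to a degree not known, because the strand setting of the counting is not given. A gene on the opposite strand inside it, 4930544D05Rik, took 11 to 29 counts per library, and reads common to both may have been lost in counting.

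Chrng (ENSMUSG00000026253, chromosome 1, 87204657 to 87212694, plus strand), the fetal gamma subunit, had 3, 4 and 2 counts in MP replicates 1, 2 and 3, against 1, 2 and 0 counts in Ctrl replicates 1, 2 and 3. Both groups were at or near the floor of 3 counts per library, which corresponds to 0.120 to 0.145 CPM. The filter took it out, and a difference was not detectable at this depth.

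Per gene length, in FPKM (the authors' values, scaled to gene length and library size), the subunits ordered as beta, alpha, epsilon, delta and gamma in libraries labelled MP, and as beta, epsilon, alpha, delta and gamma in libraries labelled Ctrl. Chrnb1, the beta subunit, averaged 22.9 ± 2.94 FPKM in MP libraries and 17.6 ± 3.78 FPKM in Ctrl libraries (SD, n = 3 each). Chrnd, the delta subunit, averaged 0.948 ± 0.136 FPKM in MP libraries and 0.827 ± 0.0551 FPKM in Ctrl libraries. Neither passed the test (log2 fold changes 0.38 ± 0.18 and 0.19 ± 0.21, edgeR adjusted p = 0.270 and 0.643), and the MP and Ctrl libraries overlapped in both.

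The ratio of epsilon to alpha within a library showed the exchange of order. Chrne over Chrna1 in FPKM was 0.809, 0.750 and 0.616 in MP replicates 1, 2 and 3, against 1.91, 1.37 and 1.76 in Ctrl replicates 1, 2 and 3. Every MP library thus held less Chrne than Chrna1 per length and every Ctrl library more. On the log2 scale the mean ratio was -0.47 ± 0.20 in MP libraries and 0.74 ± 0.25 in Ctrl libraries (SD, n = 3 each), a difference of -1.21. An exact permutation test of the 6 libraries, two-sided, gave p = 0.1, which is the lower limit of this design. With Chrna1 higher and Chrne lower in every MP library, this outcome was fixed in advance. The test therefore adds no support to the separation of the single genes. Being taken within a library, this ratio does not depend on how libraries are scaled. Whether Chrne exceeds Chrna1 in it rests on the gene lengths used, 4386 bases for Chrna1 and 1690 for Chrne. The difference between the groups does not rest on them.

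**Figure D2:**
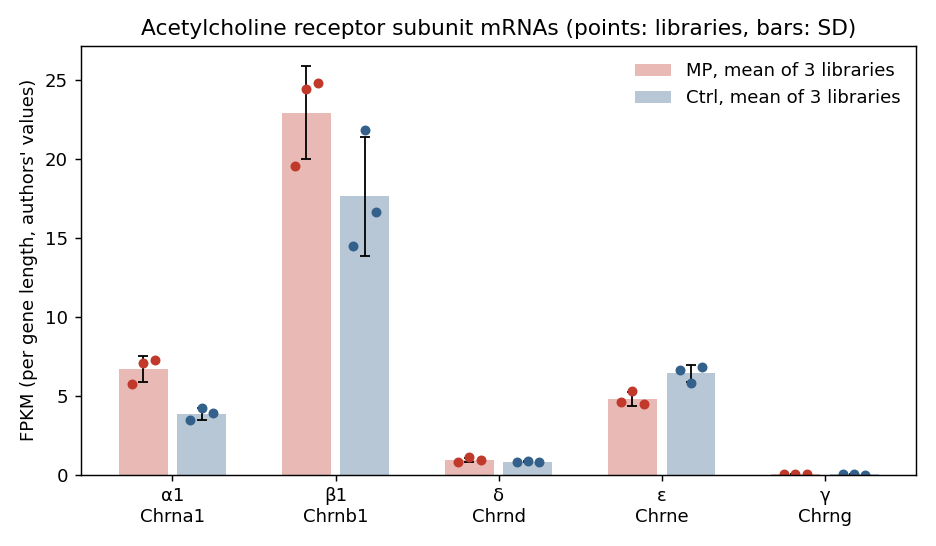
Acetylcholine receptor subunit mRNAs in FPKM (linear axis from 0), MP in red left of Ctrl in blue, with bars for the mean, points for libraries and black bars for the SD of 3 libraries. Chrna1 lay higher and Chrne lower in MP libraries, so that their order is exchanged between the groups, and Chrng stayed under 0.05 FPKM.

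Genes that build the postsynaptic scaffold lay higher in the libraries labelled MP without passing the test. Lrp4 (ENSMUSG00000027253, chromosome 2, 91457511 to 91513779), the agrin receptor, had 14.7, 13.0 and 13.5 CPM in MP replicates 1, 2 and 3, against 8.63, 6.80 and 6.36 CPM in Ctrl replicates 1, 2 and 3. The gap between the groups was wider than the range within either. Its log2 fold change was 0.91 ± 0.17 (interval 0.52 to 1.31, edgeR adjusted p = 0.0522).

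Dok7 (ENSMUSG00000044716, chromosome 5, 35056766 to 35087839), the cytoplasmic activator of MuSK, had 34.0, 20.6 and 20.1 CPM in MP replicates 1, 2 and 3, against 13.9, 12.2 and 9.54 CPM in Ctrl replicates 1, 2 and 3. MP replicate 1, the library with the highest endothelial sum, stood above the rest, and the other MP libraries still exceeded every Ctrl library. The log2 fold change was 1.07 ± 0.25 (interval 0.49 to 1.64, edgeR adjusted p = 0.0847), and 0.79 without MP replicate 1.

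Rapsn (ENSMUSG00000002104, chromosome 2, 91035620 to 91045729), which encodes the receptor-clustering protein rapsyn, had 26.3, 23.5 and 26.6 CPM in MP replicates 1, 2 and 3, against 16.8, 19.2 and 18.5 CPM in Ctrl replicates 1, 2 and 3. Both groups were tight and apart. The change was the smallest of the scaffold genes, at 0.49 ± 0.12 on the log2 scale (interval 0.20 to 0.78, edgeR adjusted p = 0.0982). An antisense gene that overlaps its end, Gm13778, took 6 to 24 counts per library.

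Musk (ENSMUSG00000057280, chromosome 4, 58285960 to 58374303), the kinase itself, had 35.9, 33.4 and 49.3 CPM in MP replicates 1, 2 and 3, against 7.55, 29.2 and 22.5 CPM in Ctrl replicates 1, 2 and 3. Ctrl replicate 1, the library with the lymphocyte genes, was far below the other Ctrl libraries, and Ctrl replicate 2 came near MP replicate 2. The log2 fold change was 1.0 ± 0.43 (interval 0.003 to 2.0, edgeR adjusted p = 0.238). It was 0.61 without Ctrl replicate 1 (edgeR adjusted p = 0.0788) and 1.40 without Ctrl replicate 2 (edgeR adjusted p = 0.236). Without Ctrl replicate 1, Lrp4 (1.06, edgeR adjusted p = 0.0118) and Dok7 (1.19, 0.0317) passed the threshold and Rapsn (0.0549) and Musk did not.

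**Figure D3:**
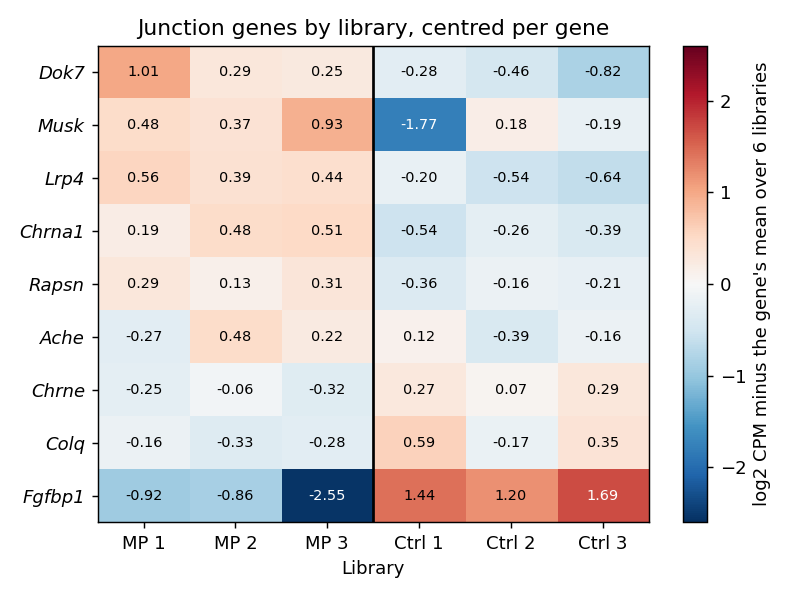
Log2 CPM of the 9 tested junction genes minus each gene's mean over 6 libraries, with MP libraries left of the black line and Ctrl libraries right of it (red above the mean, blue below). Dok7, Lrp4, Chrna1 and Rapsn are above their mean in every MP library and below it in every Ctrl library, Chrne and Fgfbp1 are the reverse, and Musk is lowest in Ctrl replicate 1.

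The acetylcholinesterase genes showed no change past the test. Ache (ENSMUSG00000023328, chromosome 5, 137287519 to 137294466), the catalytic subunit, had 22.1, 37.3 and 31.2 CPM in MP replicates 1, 2 and 3, against 29.0, 20.4 and 23.9 CPM in Ctrl replicates 1, 2 and 3. The groups overlapped, and the log2 fold change was 0.30 ± 0.22 (interval -0.20 to 0.81, edgeR adjusted p = 0.453). Colq (ENSMUSG00000057606, chromosome 14, 31523082 to 31591343), the collagen tail that fixes the enzyme in the synaptic basal lamina, had 4.88, 4.31 and 4.49 CPM in MP replicates 1, 2 and 3, against 8.22, 4.82 and 6.96 CPM in Ctrl replicates 1, 2 and 3. Ctrl replicate 2 lay within the MP range, and the log2 fold change was -0.55 ± 0.23 (interval -1.09 to -0.01, edgeR adjusted p = 0.236). Colq shares its locus with Gm49387, an overlapping gene on the same strand that was listed at 0 counts in every library, and reads common to both may have been lost in counting.

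Ordered by level per gene length in the libraries labelled MP, the 10 genes ran as Rapsn (14.1 ± 0.962 FPKM), Musk (10.5 ± 2.32), Chrna1 (6.68 ± 0.833), Ache (6.54 ± 1.68), Dok7 (5.81 ± 1.79), Chrne (4.80 ± 0.450), Lrp4 (1.30 ± 0.0741), Colq (1.20 ± 0.0682), Fgfbp1 (0.530 ± 0.274) and Chrng (0.0318 ± 0.0138). In the libraries labelled Ctrl the order was Rapsn (10.1 ± 0.727 FPKM), Chrne (6.41 ± 0.527), Ache (5.28 ± 0.916), Musk (5.23 ± 2.94), Chrna1 (3.85 ± 0.387), Fgfbp1 (3.54 ± 0.612), Dok7 (2.77 ± 0.501), Colq (1.75 ± 0.446), Lrp4 (0.690 ± 0.111) and Chrng (0.0109 ± 0.0114). Errors are SDs over 3 libraries. Neighbours differed by less than the sum of their SDs from Chrna1 to Chrne and between Lrp4 and Colq in MP libraries, and from Chrne to Dok7 in Ctrl libraries. Rapsn stood first and Chrng last in both groups. By group means, Chrne stood below Chrna1, Musk, Ache and Dok7 in MP libraries but above them in Ctrl libraries. Single libraries did not all keep this order. Chrne lay above Dok7 in MP replicate 2 (5.31 against 4.82 FPKM) and below Musk in Ctrl replicate 2 (5.81 against 7.72 FPKM).

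The remaining genes of the junction, a list of 29 chosen by role, gave 1 call, as lower, among 27 tested, where 0.508% of all tested genes were called lower and 0.788% higher. Prima1, the membrane anchor of acetylcholinesterase, fell, with 2.48, 2.42 and 2.24 CPM in MP replicates 1, 2 and 3, against 5.46, 4.49 and 5.85 CPM in Ctrl replicates 1, 2 and 3. Its log2 fold change of -1.15 ± 0.21 only just passed (edgeR adjusted p = 0.04995). The call was kept without Ctrl replicate 1 and lost on leaving out any of the other 5 libraries, with limma-voom, with library totals alone, with no filter and with the replicate block. Erbb2, a neuregulin receptor, had 9.42, 12.5 and 11.8 CPM in MP replicates 1, 2 and 3, against 4.42, 6.14 and 5.62 CPM in Ctrl replicates 1, 2 and 3, with no overlap (1.06 ± 0.20, edgeR adjusted p = 0.0534). The log2 fold change was positive in 20 of the 27 genes, against 6977 of all 14973, with a median of 0.27, against -0.03 over all tested genes. The groups did not overlap in 10 of the 27, against 27.4% of all tested genes. Without Ctrl replicate 1 the list had 6 genes higher and 1 lower, where 6.08% of all genes were called higher and 6.99% lower.

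Genes known to rise in denervated muscle did not share a direction. None of 13 tested genes was called by edgeR, where 1.30% of all tested genes were, and 4 had an unadjusted p under 0.05, against 20.8% of all tested genes. The log2 fold change was positive in 5 of 13, against 6977 of all 14973, with a median of -0.10. The groups did not overlap in 4 of 13, 2 higher and 2 lower, against 27.4% of all tested genes, 13.8% higher and 13.6% lower. Myog, which encodes the myogenin that drives receptor genes after denervation, had 7.02, 4.75 and 5.93 CPM in MP replicates 1, 2 and 3, against 21.8, 15.2 and 10.3 CPM in Ctrl replicates 1, 2 and 3. It lay lower in every MP library than in any Ctrl library (log2 fold change -1.41 ± 0.29, edgeR adjusted p = 0.0688), opposite in direction to Chrna1 and Musk. Gadd45a, a stress gene induced by denervation, also lay lower in every MP library (log2 fold change -1.10 ± 0.33, edgeR adjusted p = 0.131). Ncam1, a cell adhesion molecule, and Runx1, a transcription factor, both of which rise after denervation, lay higher in every MP library than in any Ctrl library, with log2 fold changes of 0.88 ± 0.26 and 0.77 ± 0.24 (edgeR adjusted p = 0.134 and 0.143). DESeq2 called 2 genes of this list as lower, Myog and Gadd45a, where it called 3.31% of all genes lower. Without Ctrl replicate 1, edgeR called 1 higher (Myod1) and 4 lower (Myog, Gadd45a, Trim63 and Ampd3), where it called 6.08% of all genes higher and 6.99% lower. The repressors Dach2 and Hdac9, which hold receptor genes down in innervated fibres, had log2 fold changes of -0.90 ± 0.25 and -0.67 ± 0.25 (edgeR adjusted p = 0.118 and 0.195), with no overlap between groups in either.

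Partners of Fgfbp1 were examined because its protein releases FGFs from the matrix. Of 12 genes, 2 rose, where 0.788% of all tested genes were called higher: Hspg2, which encodes perlecan, the heparan sulfate proteoglycan that stores FGFs and also anchors acetylcholinesterase, and Fgfr4, an FGF receptor of muscle precursor cells. Hspg2 had 428, 280 and 317 CPM in MP replicates 1, 2 and 3, against 156, 129 and 158 CPM in Ctrl replicates 1, 2 and 3 (log2 fold change 1.21 ± 0.19, edgeR adjusted p = 0.0362). Fgfr4 had 7.73, 8.58 and 9.13 CPM in MP replicates 1, 2 and 3, against 4.05, 3.69 and 2.40 CPM in Ctrl replicates 1, 2 and 3 (1.32 ± 0.23, edgeR adjusted p = 0.0463). The FGFs with a role at mouse junctions, Fgf7, Fgf10 and Fgf22, had log2 fold changes of -0.38 ± 0.26, 0.065 ± 0.62 and 0.37 ± 0.67, and their groups overlapped. Both calls were kept without Ctrl replicate 1, where Fgf2 and Fgfr1 were also called lower, and lost on leaving out any of the other 5 libraries and with the replicate block. The Fgfr4 call was also lost with library totals alone and on log2(FPKM + 0.1). Groups lay apart in 6 of the 12, 3 higher and 3 lower, against 27.4% of all tested genes, 13.8% higher and 13.6% lower. Fgf2, Fgfr1 and Fgfbp3 were the 3 lower ones. Their log2 fold changes were -0.62 ± 0.17, -0.66 ± 0.19 and -0.56 ± 0.23 (edgeR adjusted p = 0.117, 0.126 and 0.227). DESeq2 called Hspg2 and Fgfr4 higher and Fgfr1 lower, where it called 4.00% of all genes higher and 3.31% lower.

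**Figure D4:**
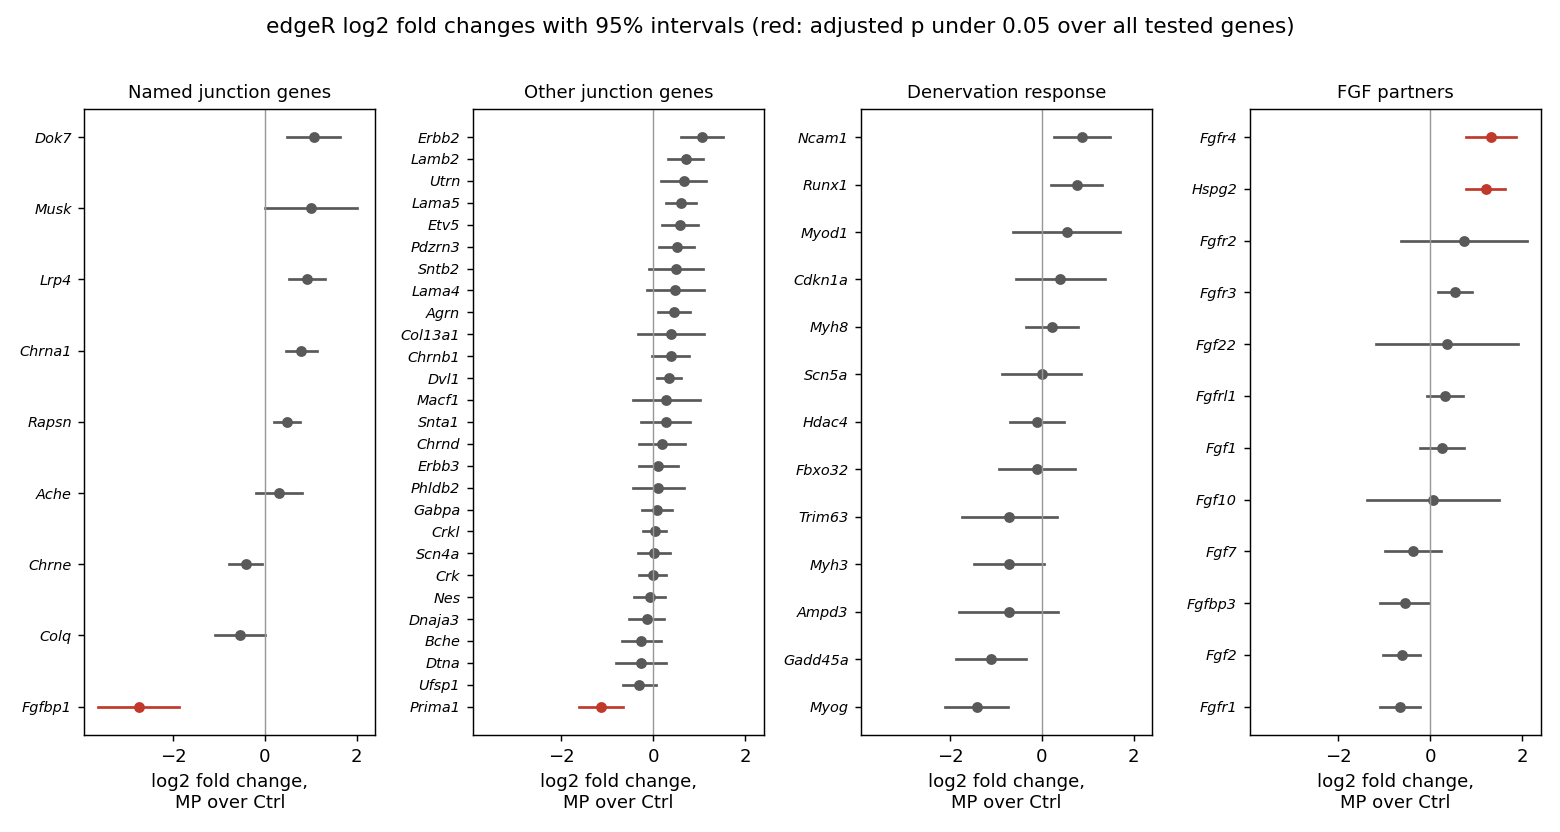
Log2 fold changes (MP over Ctrl, edgeR) as points with 95% intervals as lines, for the tested junction genes and 3 further lists, in red where the adjusted p over all tested genes was under 0.05. Fgfbp1 and Prima1 lie lower and Hspg2 and Fgfr4 higher, while most junction genes sit right of 0 without passing.

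Markers of the other cells around the junction were set beside these values. All 10 Schwann cell markers had counts in every library and summed to 285 to 463 CPM in MP libraries and 295 to 475 CPM in Ctrl libraries. Of these, edgeR called 0, against 1.30% of all tested genes, and 0 had an unadjusted p under 0.05, against 20.8%. Of 9 motor axon markers, Chat, Slc18a3 and Mnx1 were at 0 in every library, and the list summed to 1.07 to 1.48 CPM in MP libraries and 0.803 to 1.58 CPM in Ctrl libraries. Only 2 of the 9 were tested. One of these, Isl1, had 14, 12 and 17 counts in MP replicates 1, 2 and 3, against 3, 7 and 6 in Ctrl replicates 1, 2 and 3. It passed the filter on low counts only through the MP libraries. Nefm, not tested, lay the other way, with 1, 0 and 1 counts against 6, 2 and 2. Counts this low do not decide whether the list differed. Satellite cells, which also transcribe junction genes, had 7 of 7 markers with counts in every library. Their sums were 171 to 204 CPM in MP libraries and 107 to 120 CPM in Ctrl libraries, which did not overlap. Itga7 alone gave 106 to 146 CPM of the sum in MP libraries and 63.0 to 66.7 CPM in Ctrl libraries, and it rose (log2 fold change 0.91 ± 0.15, edgeR adjusted p = 0.0406). Calcr had 34, 37 and 42 counts in MP replicates 1, 2 and 3, against 9, 7 and 9 counts in Ctrl replicates 1, 2 and 3. It was called higher (2.10 ± 0.31, edgeR adjusted p = 0.0324), but passed the filter on low counts only through the MP libraries, so its call is no support for the list. Cdh15 and Vcam1 had log2 fold changes of 0.09 ± 0.18 and -0.02 ± 0.70. Those of Myf5, Chodl and Pax7 were 1.26 ± 0.23, 0.65 ± 0.15 and 0.82 ± 0.33 (edgeR adjusted p = 0.0518, 0.0845 and 0.214). Besides Calcr, DESeq2 called Itga7, Myf5 and Chodl higher, where it called 4.00% of all genes higher. Without Ctrl replicate 1, edgeR called 5 of 7 higher, Calcr included, where it called 6.08% of all genes higher. The calls of Itga7 and Calcr were kept without Ctrl replicate 1 and lost on leaving out any of the other 5 libraries.

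All 5 smooth muscle and pericyte markers had counts in every library and summed to 337 to 527 CPM in MP libraries and 268 to 322 CPM in Ctrl libraries, which did not overlap. None was called by edgeR and 4 of 5 had an unadjusted p under 0.05, against 20.8% of all tested genes. DESeq2 called Myh11, Notch3 and Pdgfrb higher, where it called 4.00% of all genes higher. The 6 markers of fibro-adipogenic progenitors, connective tissue cells of muscle, also had counts in every library and summed to 1748 to 2223 CPM in MP libraries and 1188 to 1875 CPM in Ctrl libraries, which overlapped. Among them edgeR called 0, 3 of 6 had an unadjusted p under 0.05, and DESeq2 called Pdgfra and Cxcl14 higher, beside the same shares of all genes. The sums of endothelial, macrophage, T and NK cell, adipocyte and tendon markers overlapped between the groups. For the endothelial sum this came from Ctrl replicate 1 (280 CPM) lying above MP replicate 2 (265 CPM). Ctrl replicates 2 and 3 were at 190 and 232 CPM. Each of the 5 endothelial markers had a positive log2 fold change, against 6977 of all 14973 genes, with a median of 0.65. None was called by edgeR, and 2 of 5 had an unadjusted p under 0.05, against 20.8% of all tested genes. The part of satellite cells, smooth muscle, pericytes, endothelial cells or connective tissue cells in the higher values of the junction genes, Hspg2 and Erbb2 was not tested.

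Over the 6 libraries, the genes closest in pattern to the members that led the contrast were ranked by the root mean square difference of log2 CPM centred on each gene, among 12116 other protein-coding genes. Nearest to Fgfbp1 were mt-Nd3, Nrep, Kcnip2, Mdga1 and Cntnap2, with differences of 0.66 to 0.76 log2 units. Nearest to Chrna1 were Pcm1, Myo9a, Hspb11, Lpp and Atp13a3, with differences of 0.077 to 0.10 log2 units. The value of mt-Nd3 is uncertain, since nuclear copies of mitochondrial genes can share its reads.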

How the data were processed

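RNA of 6 gastrocnemius libraries, 3 of each genotype, was sequenced by the authors from 3 µg of RNA per sample, per the labels' protocols. HISAT2 2.0.5, featureCounts 1.5.0-p3 and the build GRCm38 are named, without roles, per the submitters' processing notes. Whether counting used strand, and which annotation, is not given in the sources used here. The deposited counts are whole numbers per gene, and the deposited FPKM values are per gene length, per the file headers. Groups and replicate numbers came from the sample titles. Separate animals per library are not stated, and p-values then measure only the spread between these libraries, which may be technical.

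All genes were tested on counts with edgeR 4.0.16 (R 4.3.3): TMM scaling, filterByExpr (14973 of 54532 genes kept), quasi-likelihood test with legacy = FALSE, two-sided, Benjamini-Hochberg adjustment over all tested genes at 0.05. The SE is the size of the log2 fold change over the square root of F, and 95% intervals follow from it with the degrees of freedom of the test. CPM uses TMM library sizes. Floors from 3 counts cover counting error only. Alternatives were DESeq2 1.42.0, limma 3.58.1 (voom, and log2(FPKM + 1) or log2(FPKM + 0.1)), other scalings, no filter, each library left out and the replicate number as a block; exact permutation used scipy 1.17.1. The steps were tested on simulated counts.

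The members and lists were chosen with earlier results of these data known. Named were all members, Chrnb1 and Chrnd, and from each further list other than cell markers its calls (up to 4) or, with none, the 2 lowest p-values. Of the cell marker lists, the calls were named. Where such a list had no call, its lowest p-values were not named by rule and its sums were given. Erbb2 is also named, as the gene next to the threshold. Genes named outside this rule, after their values were seen, were the calls of the fit without Ctrl replicate 1, Ncam1, Runx1, Cdh15, Vcam1, Pax7, Isl1, Nefm, the other DESeq2 calls, Fgf7, Fgf10, Fgf22, Fgfbp3 and the overlapping genes.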

Additional observations from a re-analysis of the deposited data

How the results depend on the processing

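All 9 tested members kept their direction in all 14 alternatives. Over the whole table, the 194 calls became 1065 in DESeq2, 124 with no filter, 112 on log2(FPKM + 1), 121 on log2(FPKM + 0.1), 5 with the replicate block, and 0 to 1956 without each library in turn (0 without Ctrl replicate 3, where 2116 genes had an unadjusted p under 0.05, and 1956 without Ctrl replicate 1). They became 144 with limma-voom, 211 with RLE factors and 259 with library totals alone. Among the members the 1 call became 5 in DESeq2, 2 with RLE factors, 2 with library totals alone (Chrna1 joining Fgfbp1 in both), 0 with the replicate block, and 0 to 4 without each library in turn. The 1 call among other junction genes became 4 in DESeq2, 2 with library totals alone, 0 with limma-voom, with no filter and with the replicate block, and 0 to 7 without each library in turn. The 0 calls among denervation response genes became 2 in DESeq2 and 0 to 5 without each library in turn. The 2 calls among FGF partners became 1 with library totals alone, 1 on log2(FPKM + 0.1), 0 with the replicate block, and 0 to 4 without each library in turn. The difference in the log2 ratio of Chrne to Chrna1, -1.21, ran from -1.35 to -1.10 without each library in turn. Scaling by library totals gave 205 genes higher and 54 lower, 79.2% higher in place of 60.8%, and moved the median log2 fold change over the table to 0.12. The cause of these differences was not tested. Replicate numbers did not pair the libraries: deviations of same-numbered libraries correlated at -0.03, -0.17 and 0.15, and 1 of 3 MP libraries correlated best with its own number. Depth limits Chrng, which stayed at or below 4 counts per library.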

Other observations

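Genes of protein glycosylation are mutated in some human congenital myasthenic syndromes. Of Gfpt1, Dpagt1, Alg2, Alg14 and Gmppb edgeR called 0 and DESeq2 called 0, where they called 1.30% and 7.31% of all genes tested by each. In edgeR 0 had an unadjusted p under 0.05, against 20.8% of all tested genes. So short a list cannot show a share below these. Gfpt1, the entry enzyme of hexosamine synthesis, averaged 44.0 ± 3.37 CPM in MP libraries and 39.7 ± 2.43 CPM in Ctrl libraries (SD, n = 3 each), with a log2 fold change of 0.15 ± 0.11. Alg2, a mannosyltransferase, averaged 13.5 ± 2.22 CPM in MP libraries and 11.1 ± 3.23 CPM in Ctrl libraries.

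Ufsp1, which starts within 1000 bases of the end of Ache on the same strand, averaged 8.92 ± 1.07 CPM in MP libraries and 11.0 ± 0.281 CPM in Ctrl libraries (SD, n = 3 each). Its log2 fold change was -0.31 ± 0.15 (edgeR adjusted p = 0.298), while that of Ache was 0.30. Mink1, which ends within 1000 bases of Chrne on the opposite strand, averaged 46.5 ± 2.95 CPM in MP libraries and 37.2 ± 9.03 CPM in Ctrl libraries, with a log2 fold change of 0.32 ± 0.18 (edgeR adjusted p = 0.346) against -0.42 for Chrne. These neighbours were named after their values were seen.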
